A study of Mus musculus with 6 samples.

Results

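DNA repair genes were examined in upper-layer neurons of the mouse cerebral cortex at postnatal day 5 (P5) and postnatal day 3 (P3). The genes were chosen by symbol, as all rows of the authors' gene table whose name begins with Xrcc, Rad, Ercc, Msh, Mlh, Lig or Parp followed by a digit, or with Fanc followed by a letter. That rule uses no measured value and found 67 of the 22544 genes in the table. By their textbook roles, 4 of them belong to end joining, 11 to homologous recombination, 10 to the Fanconi pathway, 7 to mismatch repair and 14 to excision repair. A further 5 act in the replication checkpoint or in post-replication repair, and 16 match the symbols without belonging to any of these pathways.

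The P5 group comprised 3 biological replicates and the P3 group comprised 3, all of them cortical neurons of Swiss Webster mice that carried green fluorescent protein (GFP) and were collected by fluorescence-activated sorting. No treatment or allele other than the GFP label is given for either age, and how the label reached the cells is not given in the sources used here. The table gives 1 FPKM per gene and age (fragments scaled to transcript length and to all mapped fragments), which Cuffdiff pooled from the replicates, so values of single replicates cannot be shown. Library depth is unknown, since FPKM keeps no count of fragments. Neuronal markers varied in level in these sorts, with Tubb3 at 155 FPKM at P5 and 75.6 at P3, and Rbfox3 at 11.0 and 5.81. Astrocyte markers were abundant too, with a summed level of 1761 and 1227 FPKM, above the 1549 and 888 of the neuronal markers. Without the most abundant gene of each list, Aldoc and Stmn2, the sums were 987.5 and 460 for astrocytes and 792 and 557 for neurons. The order at P3 was then reversed. The upper-layer marker Cux1 was at 25.3 and 34.9 FPKM, whereas Cux2, another upper-layer marker, was at only 1.99 and 1.87.

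Cells mend DNA by several routes. End joining seals a break across both strands directly: the Ku proteins hold the ends, and Lig4 with Xrcc4 ligates them. Homologous recombination copies the lost sequence from the sister chromatid, and so is used in dividing cells after replication. The Fanconi proteins unhook crosslinks that stall replication forks, mismatch repair corrects copying errors behind the fork, and excision repair removes damaged bases, nicks and bulky lesions at any time, in cycling and non-cycling cells alike. Neurons that have left the cell cycle are known to lean on end joining and excision repair.

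Promoter sequences are shown for 3 of the more abundant members, because many genes of replication-linked repair are known targets of the E2F factors that drive entry into S phase. RefSeq promoter entries (GRCm38.p6, 250 bases before to 50 bases after the start) were matched for 50 of the 67 members, 4 of them through a newer symbol. Any of 3 octamers, TTTCCCGC, TTTGGCGC or TTTCGCGC, on either strand, was present in 7 of those 50 genes (14%), against 573 of all 27025 genes with an entry (2.12%). The 7 genes were Msh3, Msh5, Msh6, Xrcc6, Lig1, Rad51c and Fancg, of which 3 belong to mismatch repair, where 5 genes had an entry. The sequences run 5′ to 3′ on the strand of the gene, from 220 bases before to 30 bases after the start, and the octamers are in capitals.
Msh6 (GRCm38.p6 chr17:87974830-87975079, plus strand): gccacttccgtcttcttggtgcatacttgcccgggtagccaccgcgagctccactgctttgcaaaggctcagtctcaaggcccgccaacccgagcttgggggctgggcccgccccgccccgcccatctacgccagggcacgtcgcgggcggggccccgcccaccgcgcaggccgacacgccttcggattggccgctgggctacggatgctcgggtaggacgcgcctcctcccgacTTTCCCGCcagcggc
Xrcc6 (GRCm38.p6 chr15:82016149-82016398, plus strand): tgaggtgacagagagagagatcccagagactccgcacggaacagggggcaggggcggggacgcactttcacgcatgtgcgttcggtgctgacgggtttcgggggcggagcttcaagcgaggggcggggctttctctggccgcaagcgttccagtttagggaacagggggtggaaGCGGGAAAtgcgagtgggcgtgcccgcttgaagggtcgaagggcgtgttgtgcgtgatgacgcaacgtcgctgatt
Xrcc4 (GRCm38.p6 chr13:90089579-90089828, minus strand): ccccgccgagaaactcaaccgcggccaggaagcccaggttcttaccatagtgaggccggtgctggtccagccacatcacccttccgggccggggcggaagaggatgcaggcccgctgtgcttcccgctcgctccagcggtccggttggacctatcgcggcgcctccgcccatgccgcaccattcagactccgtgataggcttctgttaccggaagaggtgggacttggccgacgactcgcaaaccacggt

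In Msh6 the octamer TTTCCCGC began at base 16 after the start, and in Xrcc6 it lay on the opposite strand, 46 bases before the start. Xrcc4 held none of the octamers in its entry. A match of letters is not a bound site. Beside these, the CCAAT box (CCAAT) was present in 54% of the 50 members and 41.1% of all genes with an entry, and the GC box (GGGCGG) in 64% and 38.2%.

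The comparison of the ages asks whether the levels of repair genes differ between the cells sorted at P5 and at P3. Of the 67 members, 59 were tested by the authors' Cuffdiff run, and 0 of these passed q = 0.05 in the authors' deposited table. The background is the same, since 0% of all 12865 tested rows passed. At an unadjusted p under 0.05 in the authors' deposited table there were again 0 members, where 0.770% of all tested rows lay under it. The lowest p of any member in the authors' deposited table was 0.063, for Fancd2. With FPKM above 0 at both ages, 58 tested members have a log2 ratio of P5 over P3, and 27 of these were positive and 31 negative. Over the whole table, 44.4% of such ratios were negative. The median ratio was -0.16 for the members and 0.13 for all tested rows. The standard error (SE) implied by the Cuffdiff statistic had a median of 1.62 log2 units among the members. The 95% interval included 0 in 58 of 58, which restates the count at p under 0.05, since both rest on the same statistic. With errors of this size, differences between the ages of the sizes given below were not detectable with this test.

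**Figure D1:**
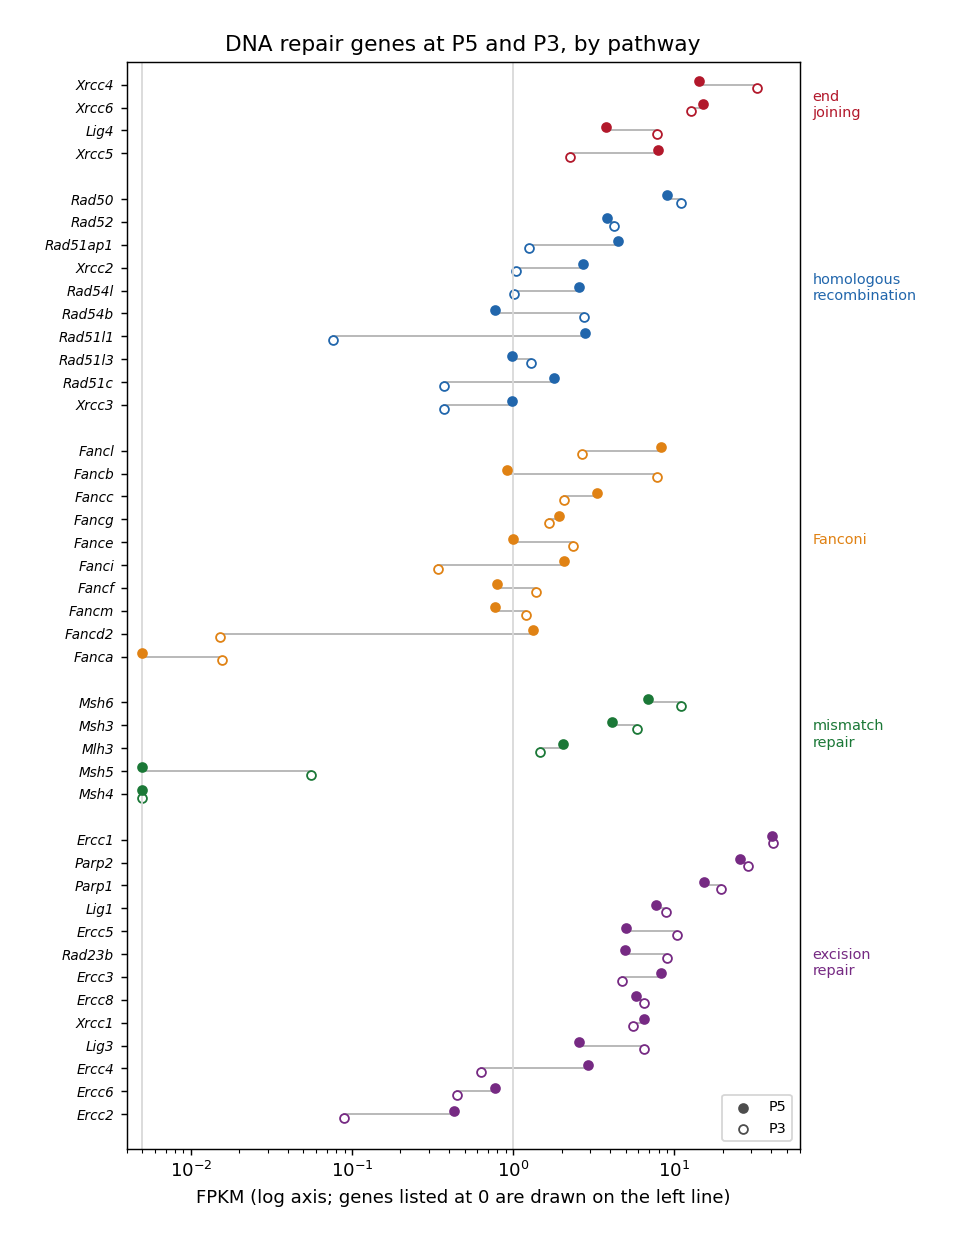
FPKM of 42 of the 46 members of 5 repair pathways on a log axis, with P5 as filled and P3 as open circles and 1 row per gene, sorted by mean FPKM. Values are pooled over 3 replicates per age and have no error bar. Ercc1, Parp2 and Xrcc4 lie furthest to the right, and most homologous recombination and Fanconi genes lie between 0.3 and 5 FPKM at P5.

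By pathway, the 4 end joining members had the highest median at each age, 11.1 FPKM at P5 and 10.2 at P3, and the excision repair members the next, 6.13 and 6.71. This order turned round when the other genes of the pathways were added, with medians of 3.38 FPKM at P5 and 2.29 at P3 for end joining and 5.78 and 6.30 for excision repair. Among the members alone, the medians were lower for homologous recombination (2.58 at P5 and 1.04 at P3), mismatch repair (2.04 and 1.47) and the Fanconi genes (1.17 and 1.52). With the other genes added, the Fanconi median was 1.45 at P5 and 2.34 at P3, at P3 slightly above the 2.29 of end joining. Those of homologous recombination (2.37 and 1.81) and mismatch repair (2.48 and 1.49) stayed below end joining. The mismatch repair medians include the untested meiotic genes Msh4 and Msh5, and over the 5 tested members of that pathway the medians were 4.11 FPKM at P5 and 5.84 at P3. For comparison, all rows of the table had a median of 1.0004 FPKM at P5 and 0.48 at P3, with 7607 rows at 0 at P5 and 8800 at P3. Tested rows with a ratio were higher, with medians of 14.3 and 13.7 for those with a mean of at least 5 FPKM. For those under 5 FPKM the medians were 2.06 and 1.46. The lowest end joining level was 3.79 FPKM at P5 and 2.27 at P3, below the highest level of every other pathway. No test was made between pathways, because genes are not replicates. Of the FPKM summed over the 46 genes, 258 at P5 and 284 at P3, excision repair made up 53.1% at P5 and 52.6% at P3, end joining 15.9% and 19.5%, homologous recombination 12.6% and 8.60%, mismatch repair 10.49% and 12.4%, and the Fanconi genes 7.90% and 6.88%.

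**Figure D2:**
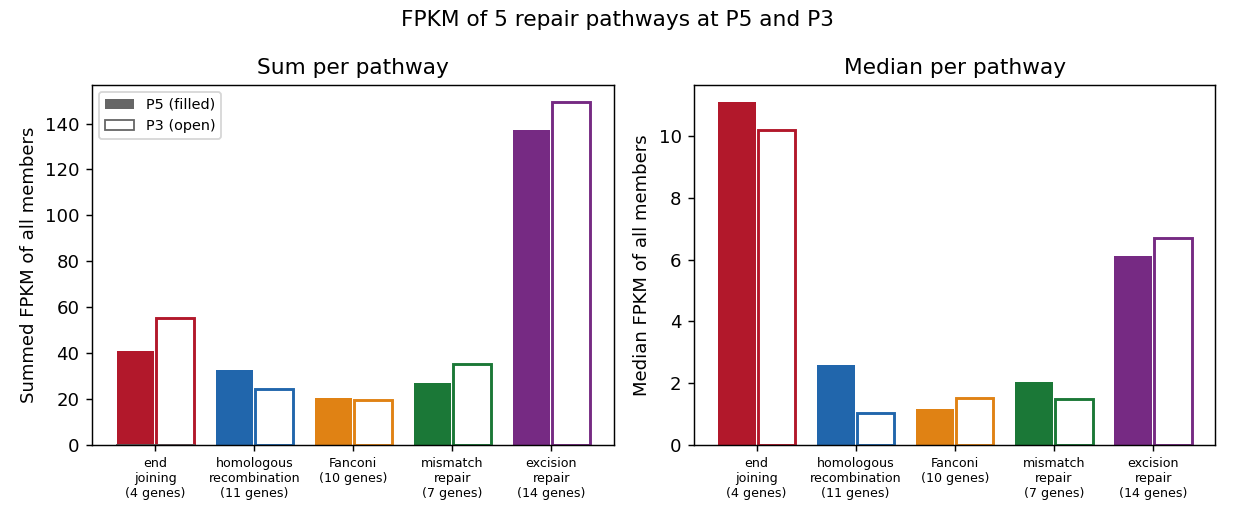
Summed FPKM (left) and median FPKM (right) of all members of each pathway, with P5 as filled and P3 as open bars. Excision repair has the highest sum, 137 at P5 and 149 at P3, and the 4 end joining members have the highest median, an order that was lost with the other genes of the pathways added.

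End joining was represented by its core: both Ku subunits, the ligase and its scaffold. Xrcc4 (mm9 chromosome 13, 89988519 to 90229213), the scaffold of the ligase, was at 14.3 FPKM at P5 and 32.7 at P3, a log2 ratio of -1.19 (SE 0.98). Lig4 (mm9 chromosome 8, 9970020 to 9976323), the ligase of this route, was at 3.79 and 7.77 FPKM, a ratio of -1.04 (SE 1.12). Xrcc4 had 3.77 times the FPKM of Lig4 at P5 and 4.20 times at P3, and the log2 ratios of these partners differed by -0.16 (SE 1.49). The Ku subunits had positive ratios. Xrcc5 (mm9 chromosome 1, 72353995 to 72441527), which encodes Ku80, was at 7.95 FPKM at P5 and 2.27 at P3 (log2 ratio 1.81, SE 1.58), and Xrcc6 (mm9 chromosome 15, 81846799 to 81870514), which encodes Ku70, was at 15.0 and 12.6 (0.25, SE 1.09). These proteins work as a dimer, yet the FPKM of Xrcc5 was 0.53 times that of Xrcc6 at P5 and 0.18 times at P3. The difference between the ratios of the Ku genes was 1.56 with an SE of 1.92, which treats the errors of both genes as independent, so it did not exceed its error. No end joining locus overlaps another row of the table, and the lowest p of the 4 genes in the authors' deposited table was 0.225.

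Of 10 other end joining genes looked up, 8 were tested, 4 with higher and 4 with lower FPKM at P5, and 0 passed in the authors' deposited table. The break sensor Trp53bp1 was at 7.95 FPKM at P5 and 10.7 at P3, and Tdp2, which frees DNA ends from trapped topoisomerase, was at 8.05 and 9.85. Nhej1, which encodes the XLF partner of Xrcc4, was at 6.003 and 0.548 FPKM. The catalytic kinase gene Prkdc was low, at 1.41 and 2.32 FPKM, and the lymphoid polymerase gene Dntt was listed at 0 at both ages.

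Homologous recombination genes were low at both ages apart from Rad50. In this pathway 7 of 11 genes had higher FPKM at P5, all 7 with a log2 ratio of at least 1, and 4 had lower FPKM. Of all tested rows, 23.9% had a ratio of at least 1, and of those with a mean under 5 FPKM, where 10 of the 11 genes lie, 37.1% did. The median ratio was 1.35, but it was -0.12 when the other genes of the pathway were added. Rad50, part of the complex that first binds broken ends and also serves end joining, was at 8.98 FPKM at P5 and 10.98 at P3 (log2 ratio -0.29, SE 0.92). Rad52, an annealing factor, was at 3.83 and 4.24 (-0.15, SE 2.08), and Rad51ap1, which helps to pair strands, was at 4.50 and 1.25 (1.84, SE 2.28). The motor protein gene Rad54l was at 2.58 FPKM at P5 and 1.01 at P3, whereas the related Rad54b was at 0.77 and 2.77.

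The genes Xrcc2, Xrcc3, Rad51c, Rad51l1 and Rad51l3, whose products assist strand exchange, were all under 3 FPKM. At P5 and P3 the values were 2.71 and 1.04 FPKM for Xrcc2, 0.99 and 0.37 for Xrcc3, and 1.80 and 0.37 for Rad51c. Rad51l1 (Rad51b in current naming) was at 2.78 and 0.076 FPKM, a ratio of 5.18 with an SE of 3.39, and Rad51l3 (Rad51d) was at 0.99 and 1.29. Among these genes, 4 of 5 thus had higher FPKM at P5, with SEs between 1.43 and 7.35 log2 units. The loci of Rad54l and Xrcc3 overlap those of Lrrc41 and Klc1, and the SEs of these genes, 7.02 and 7.35, were the widest of the pathway.

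Of 17 other recombination genes, 15 were tested, 5 with higher and 10 with lower FPKM at P5, and 0 passed in the authors' deposited table. The most abundant encode small accessory subunits. Shfm1, a short acidic protein that also belongs to the proteasome, was at 192 FPKM at P5 and 236 at P3. Swi5 and its partner Sfr1 were at 95.4 and 172 and at 112 and 120 FPKM. Rbbp8, which starts the trimming of broken ends, was at 2.67 and 6.68 FPKM, and Nbn, the partner of Rad50, at 6.93 and 6.85. The meiotic recombinase gene Dmc1 was listed at 0 at both ages.

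Fanconi genes had the lowest median FPKM of the 5 pathways at P5, with 5 of 10 reaching 1 FPKM at P5 and 7 of 10 at P3. Among 9 tested genes, 5 ratios were positive and 4 negative, with a median of 0.22. It turned to -0.65 with the 7 genes whose locus overlaps no other row, and to -0.43 with the other genes of the pathway added. Fancl, the ubiquitin ligase subunit of the core complex, was at 8.27 FPKM at P5 and 2.70 at P3 (log2 ratio 1.62, SE 2.18), at a locus that overlaps Vrk2. Fancb, a core complex subunit on the X chromosome, was at 0.91 and 7.79 FPKM (-3.10, SE 1.83), the most negative ratio of the 58 members with a ratio. Its p in the authors' deposited table was 0.091. Fancc, another core subunit, was at 3.32 and 2.06 FPKM (0.68, SE 1.96).

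Of the other core subunits, Fancg was at 1.93 FPKM at P5 and 1.66 at P3, Fance at 0.999 and 2.35, and Fancf at 0.79 and 1.39. Fancm, the translocase that anchors the core on DNA, was at 0.77 and 1.21 FPKM. The pair that the core marks with ubiquitin had higher FPKM at P5, but the 95% interval of each ratio included 0. Fancd2 was at 1.33 FPKM at P5 and only 0.015 at P3, a ratio of 6.46 with an SE of 3.48. Fanci was at 2.06 and 0.34, with an SE of 11.8, at a locus that overlaps Polg. Fanca, also a core subunit, was listed at 0 at P5, was at 0.016 FPKM at P3 and was not tested.

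Of 10 other Fanconi pathway genes, 9 were tested, and 9 had a negative ratio, between -2.47 (Brip1) and -0.0037 (Usp1), but 0 passed in the authors' deposited table. Stra13 and Apitd1, which encode a histone-fold pair bound to Fancm, were far above the core, at 66.9 FPKM at P5 and 75.0 at P3 and at 15.8 and 21.5. Ube2t, the conjugating enzyme that works with Fancl, was at 7.62 and 7.95 FPKM, and Wdr48, a partner of the deubiquitinase Usp1, was at 10.1 and 13.5. Dclre1a, a nuclease of crosslink repair, was at 6.62 and 10.34 FPKM.

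In mismatch repair, 2 of the 5 tested genes had positive and 3 had negative ratios, with a median of -0.43. Msh6, which recognises single-base mismatches, was at 6.92 FPKM at P5 and 10.96 at P3 (log2 ratio -0.66, SE 1.73). Msh3, which recognises loops, was at 4.11 and 5.84 FPKM (-0.51, SE 1.42). Both genes had lower FPKM at P5, within their errors, and Msh6 had 1.68 times the FPKM of Msh3 at P5 and 1.88 times at P3. The loci of Msh6 and Msh3 each overlap another row, and without them the median ratio of the pathway was 0.47 in place of -0.43. The mean ratio over the 5 tested genes was 0.22, also of the other sign.

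MutL proteins act after recognition. The MutL gene Mlh3 was at 2.04 FPKM at P5 and 1.47 at P3. Pms2, a MutL nuclease, was at 6.19 and 6.96 FPKM, with Pms1 at 2.93 and 1.43 and the exonuclease Exo1 at 0.63 and 1.5025. The 3 added genes were all tested, and 0 passed in the authors' deposited table. The meiotic MutS genes were at the floor of the table: Msh4 was listed at 0 at both ages, and Msh5 was listed at 0 at P5 and was at 0.056 FPKM at P3.

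Excision repair held the most abundant gene of the 5 pathways, Ercc1, and the next at P5, Parp2. Parp1 and Parp2 encode enzymes that sense breaks in 1 strand and mark them with ADP-ribose. Parp2 was at 25.6 FPKM at P5 and 28.9 at P3 (log2 ratio -0.18, SE 0.94), and Parp1 was at 15.3 and 19.5 (-0.35, SE 0.88). Xrcc1, the scaffold of nick repair, was at 6.48 FPKM at P5 and 5.56 at P3. Its ligase Lig3 was at 2.57 and 6.48 FPKM (-1.33, SE 1.15), at a locus that overlaps Rffl. Xrcc1 and Lig3 form a complex, and Xrcc1 had 2.52 times the FPKM of Lig3 at P5 and 0.86 times at P3, a difference of their log2 ratios of 1.55 (SE 1.78). Lig1, the ligase that joins replication fragments and long repair patches, was at 7.70 and 8.94 FPKM.

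In nucleotide excision repair, Ercc1, the non-catalytic subunit of the nuclease that cuts 5′ of a lesion, was the most abundant. Ercc1 was at 40.4 FPKM at P5 and 41.2 at P3 (log2 ratio -0.03, SE 1.41), at a listed locus shared with Cd3eap (mm9 chromosome 7, 19930420 to 19944832). Its catalytic partner Ercc4 was far lower, at 2.90 and 0.63 FPKM, so that the partners differed 13.9-fold at P5 and 65.2-fold at P3. Ercc5, the nuclease of the 3′ side, was at 5.06 and 10.4 FPKM (-1.05, SE 1.02). The helicase gene Ercc3 of the TFIIH complex was at 8.24 and 4.72 (0.80, SE 1.32), while the other helicase gene of TFIIH, Ercc2, was at 0.43 and 0.089 and was not tested. Rad23b, a partner of the lesion sensor Xpc, was at 4.96 and 8.997 FPKM (-0.86, SE 1.06). The genes of transcription-coupled repair were Ercc8, at 5.78 and 6.52 FPKM, and Ercc6, at 0.77 and 0.45.

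Among all 13 tested excision repair genes, 5 ratios were positive and 8 negative, with a median of -0.17 and a mean of the other sign, 0.037. The locus of Lig1 overlaps 6330408A02Rik. Of 33 other excision repair genes in the table, 30 were tested, 16 with higher and 14 with lower FPKM at P5, and 0 passed in the authors' deposited table. Gtf2h5, the smallest subunit of TFIIH, was at 206 FPKM at P5 and 207 at P3, and Cetn2, which binds the lesion sensor Xpc, was at 76.7 and 108. The cyclin Ccnh of the TFIIH kinase was at 32.7 and 14.3 FPKM, a ratio of 1.198 (SE 1.02), and Aptx, which clears blocked ends of nicks, was at 8.52 and 14.2. The repair polymerase Polb was at 14.2 and 25.3 FPKM, and the glycosylase genes Tdg and Neil2 were listed at 0 at both ages.

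**Figure D3:**
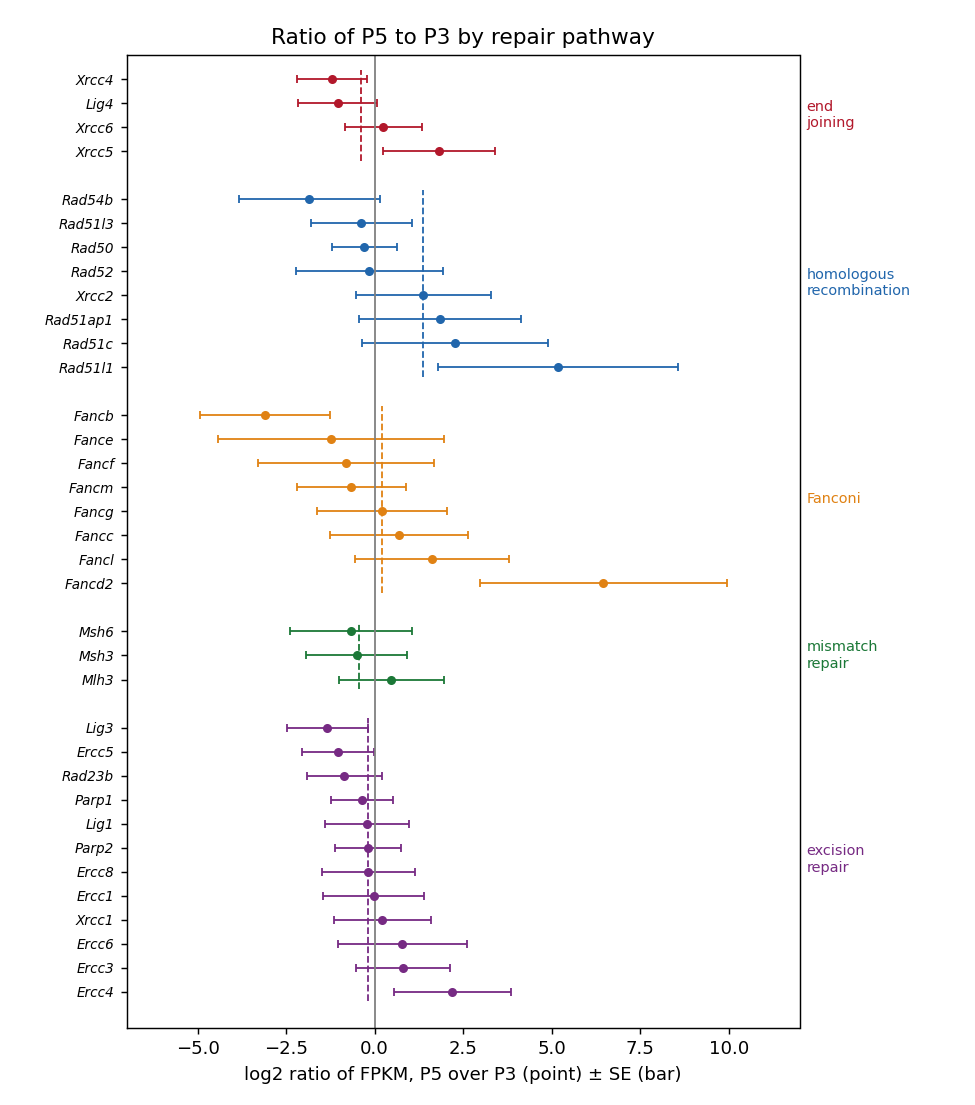
Log2 ratio of P5 over P3 FPKM for tested members of 5 pathways that are described by name, with bars of 1 SE either side and a dashed line at the median of all tested members of the pathway. Another 3 genes with an SE above 5 log2 units (Rad54l, Xrcc3 and Fanci) are not drawn. Points lie on both sides of 0 in every pathway.

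Checkpoint genes that share the Rad symbol had 2 positive and 3 negative ratios among 5, with a median of -0.65. Rad1, part of the clamp that activates the kinase Atr, was at 11.25 FPKM at P5 and 17.7 at P3 (log2 ratio -0.65, SE 1.2003), and Rad17, which loads this clamp, was at 8.11 and 14.5 (-0.84, SE 1.31). Rad9, the third subunit, was at 3.73 and 2.73 FPKM with an SE of 18.6, at a locus that overlaps Ppp1ca. Its paralog Rad9b was at 1.04 and 2.05 FPKM. Rad18, the ligase that marks the clamp Pcna at stalled forks, was at 7.28 and 6.58 FPKM (0.14, SE 1.73). Its conjugating enzymes Ube2a and Ube2b were more abundant, at 46.7 FPKM at P5 and 13.9 at P3 and at 50.8 and 43.5, and the ligase Hltf of the same route was at 3.96 and 11.75. Of 11 other genes of this group, 10 were tested, 4 with higher and 6 with lower FPKM at P5, and 0 passed in the authors' deposited table.

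The remaining 16 matches included the highest level of all members at P3. Rad21, the ring-closing subunit of cohesin, was at 39.8 FPKM at P5 and 55.9 at P3 (log2 ratio -0.49, SE 0.90). Xrcc6bp1, a Ku-binding protein by name, was at 6.29 and 11.7 FPKM (-0.90, SE 1.88), Ercc6l, a mitotic helicase, at 1.67 and 3.28, and Rad54l2, a chromatin remodeller, at 1.25 and 0.69. Of the remaining Parp genes, Parp6 was at 14.2 and 12.9 FPKM (0.14, SE 1.2006), Parp11 at 6.52 and 4.54 (0.52, SE 1.15), Parp8 at 3.31 and 3.88, Parp9 at 0.58 and 3.51 and Parp3 at 0.35 and 1.74. Parp12 was at 1.07 FPKM at P5 and listed at 0 at P3. The other 6, Parp4, Parp10, Parp14, Parp16, Rad21l and Rad51ap2, were below 1 FPKM at both ages.

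The ratios were also set against the level of the gene. Of the 25 members with a mean of at least 5 FPKM, 9 ratios were positive and 16 negative, with a median of -0.22. Among all tested rows of that level 49.9% were lower at P5 and the median was 0.00. Of the 33 less abundant members with a ratio, 18 ratios were positive and 15 negative, with a median of 0.45, against 37.9% lower and a median of 0.46 among all such rows. Past a factor of 2 in the lower direction (log2 ratio of -1 or below) were 10 of 58 members (17.2%), against 10.0% of all tested rows. Past it in the higher direction were 13 members (22.4%), against 23.9% of all tested rows. The median of the less abundant repair genes was thus close to that of the table, and that of the abundant ones was below it, with no test of the difference.

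**Figure D4:**
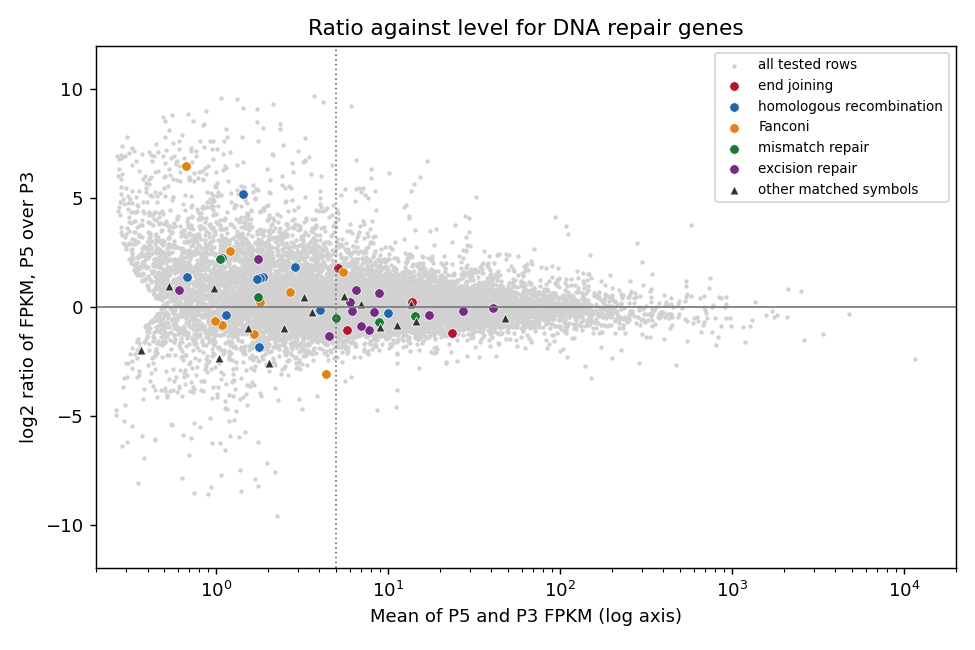
Log2 ratio of P5 over P3 FPKM against the mean FPKM of both ages for all 12313 tested rows with a ratio (grey) and for the 58 members (coloured by pathway, triangles for other matched symbols). The dotted line marks 5 FPKM; to its right members lie between -1.19 and 1.81, to its left between -3.10 and 6.46.

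Markers of other cell types were read in the same sorts, and 0 of them passed the test in the authors' deposited table. Of 12 genes of cycling cells, which use replication-linked repair, 4 were higher and 8 lower at P5, and their summed level was 130 FPKM at P5 and 156 at P3, with 0 of them listed at 0. Of 8 radial glia and intermediate progenitor genes, 7 were tested, 1 higher and 6 lower at P5 (summed level of all 8, 121 and 178 FPKM), and the untested Neurog2 was at 0.44 and 0.086. Microglial genes were higher at P5 in 10 of 10, with a summed level of 150 FPKM at P5 and 16.5 at P3. Without C1qb, the most abundant, the sums were 122 and 6.77. Most of these genes were under 1 FPKM at P3, and the SEs of their ratios lay between 1.44 and 3.70 log2 units. Of all tested rows with a ratio, 44.4% were lower at P5. Oligodendrocyte lineage genes were higher in 8 of 8 (297 and 139 FPKM) and astrocyte genes in 8 of 8 (1761 and 1227 FPKM). Endothelial and mural genes were higher in 5 of 7 tested (947 and 915 FPKM, with Tek listed at 0 at P3), and without Rgs5, which carried these sums, the summed level was 41.5 FPKM at P5 and 4.55 at P3. Erythroid genes were higher in 2 of 2 tested (71.1 and 2.51 FPKM, with Hba-a2 listed at 0 at both ages). Neuronal genes were higher in 6 of 6 tested (1549 and 888 FPKM, with Dcx, whose test failed, included at 51.0 and 73.0). At P5, upper-layer genes were higher in 4 of 10 (493 and 504), deep-layer genes in 6 of 8 (68.7 and 57.3) and interneuron genes in 5 of 8 (512 and 252). The part of these cells in the repair values was not tested, and in pooled sorts fewer cells of a type and less RNA per cell cannot be told apart.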

How the data were processed

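The expression values were deposited as 1 FPKM per gene and age, pooled over replicates by Cuffdiff per the file headers, and the log2 ratio and test statistic, handled as scores, were deposited beside them with a placeholder where an age is at 0. The p-value and q-value of each gene are those of the authors' deposited table. TopHat, Cuffdiff 2.02 and the build mm9 are named in the submitters' processing notes. The annotation, strandedness and depth were not given there.

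The log2 ratio of P5 over P3 was recomputed from FPKM. In 12313 rows the deposited p matched the normal tail of the statistic, on both sides, within 2.8e-06, so the SE was taken as the size of the ratio over that of the statistic, and intervals as 1.96 SE. Only rows with status OK count as tested. Lists are described by counts and medians, without a test. Loci, whose starts were read as counted from 0, are printed counted from 1. For 14 members the listed locus is the same as that of another row, so it can span more than the gene itself. Whether the transcripts of such rows overlap was not examined, and how far their reads can be told apart is not known. An FPKM of 0 can be a failed estimate. A few genes are not reported here by name, though they enter the counts and medians. Both ages are given for every other member that reached 1 FPKM at either age, and ratios for the 3 most abundant of each pathway and those of lowest p with at least 5 FPKM, besides a few named after their values were seen (Fancd2 and Rad51l1 among them). Members, lists, motifs and markers were chosen with earlier results of these data known. Python 3.11.15, pandas 2.3.3, NumPy 2.4.6 and SciPy 1.17.1 were used, and the calculations were tested on simulated data.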

Additional observations from a re-analysis of the deposited data

How the results depend on the processing

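The count of members passing q = 0.05 stayed at 0 under all 5 alternatives. These were q at 0.01, a minimum log2 ratio, Bonferroni adjustment, adjustment over rows of at least 1 FPKM, and any status. The stricter settings (q at 0.01, the minimum ratio and Bonferroni) could only give 0, since 0 of all 12865 tested rows passed q = 0.05. Of 45 alternatives to the median log2 ratios, 6 turned the sign, and the other 39 kept it and moved by less than the SE of the list's mean. Those 39 still hold sizeable shifts: end joining had -0.04 as a mean and -0.02 with the other genes (-0.39 as reported), Fanconi 0.64 as a mean (0.22), and homologous recombination 0.79 with a pseudocount of 1 FPKM (1.35). With the other genes of the pathway, the median was -0.12 for homologous recombination (1.35 as reported) and -0.43 for Fanconi (0.22). With loci overlapping no other row it was -0.65 for Fanconi and 0.47 for mismatch repair (-0.43 as reported). As a mean it was 0.22 for mismatch repair and 0.037 for excision repair (-0.17). Of 50 alternatives to the median FPKM, 11 moved it by over 1.5 times. With the other genes, end joining had 3.38 at P5 and 2.29 at P3, and at P3 homologous recombination had 1.81 and Fanconi 2.34. Mismatch repair had 4.11 at P5 and 5.84 at P3 when limited to genes that reached 1 FPKM, with tested members, and without members of more than 1 role, and 0.37 at P3 with loci overlapping no other row. The cause was not tested. No paired analysis was possible because the table has 1 pooled column per age, which carries no replicate number, and no replicate could be left out for the same reason.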

Other observations

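The loci of some repair genes lie close together on the chromosome. Those of Lig3 and Rad51l3 (82594637 to 82684712 and 82686567 to 82704117) lie 1854 bases apart on mm9 chromosome 11. The same locus is listed for Lig3 and for Rffl, so this gap need not be the distance from Lig3 itself. Lig3 and Rad51l3 both had lower FPKM at P5, 2.57 against 6.48 at P3 for Lig3 and 0.99 against 1.29 at P3 for Rad51l3. The loci of Ercc1 and Ercc2 lie 22555 bases apart on mm9 chromosome 7. These genes differed widely in level, with 40.4 and 0.43 FPKM at P5 and 41.2 and 0.089 at P3. Ercc2 was not tested. Its listed locus is shared with Klc3 and Mir343, and that of Ercc1 with Cd3eap, so the gap need not be the distance between the genes. How far the reads of these rows can be told apart is not known.

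Members whose locus overlaps another row had a median SE of 1.96 log2 units, against 1.55 for members whose locus overlaps none, and the widest SE was 18.6 with an overlap and 3.48 without.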
